A study of Mus musculus with 21 samples.

Results

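Antigen presentation genes were examined in whole small intestine of mouse embryos at E18.5 on Illumina WG6_V2 bead arrays. The 33 members were the class I heavy chains and their relatives, the class I light chain B2m, the genes that cut, carry and load peptides, the class I transactivator Nlrc5, and the class II pathway. A probe belonged to the set if its platform gene symbol was that of a member, which gave 57 of the 45281 probes on the array, for 32 of the 33 members. H2-L had no probe. The 32 stand among 19057 genes named on the array. The series holds 11 libraries labelled Prdm1+/+ and 10 labelled Prdm1-/-, each described as a biological replicate of mixed strain. The Prdm1+/+ embryos had the genotype Prdm1CA/+. The Prdm1-/- embryos had the genotype Prdm1CA/BEH with Villin-Cre, a recombinase transgene active in intestinal epithelium. Fathers carried Villin-Cre and BEH, mothers were CA/CA and carried R26R, so every embryo of both groups had 1 CA allele. The labels name Villin-Cre in mutants only, so a transgene effect and a Prdm1 effect cannot be told apart. The labels give no MHC haplotype, litter or sex.

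Prdm1, which encodes the transcriptional repressor Blimp1, was examined first because it can check the labels. Its only detected probe was below detection on all 11 arrays labelled Prdm1+/+ and detected on all 10 labelled Prdm1-/-, at least 7.31-fold higher there (adjusted p = 1.64e-12). A rise is not what loss of the transcript would give, and the probe's position in the gene is unknown here, so the deletion itself could not be checked with it. All directions depend on the labels, and the groups are written as labelled controls and labelled mutants. Between 14596 and 16085 probes were detected on an array, and precision is limited by how many arrays there were. The epithelial marker Vil1 was detected on every array, while Epcam, Fabp1 and Fabp2 did not pass the detection filter. Car1, a marker of the distal gut, was detected in 6 of 10 labelled mutants and in 0 of 11 labelled controls. Another listed distal gut marker, 1810065E05Rik, was detected in 10 of 10 labelled mutants and in 1 of 11 labelled controls. Labelled mutants without Car1 therefore still had 1810065E05Rik detected. Hoxd10, outside the list of markers, was detected in 6 of 10 labelled mutants and in 0 of 11 labelled controls. It read 6.07 to 6.93 in the labelled mutants with Car1 and 4.32 to 4.37 in those without. Whether 1810065E05Rik follows gut position or genotype was not tested. Hoxa13, also tested, was not called (0.10, adjusted p = 0.435).

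MHC class I molecules present peptides from inside the cell to CD8 T cells. Proteasomes cut the peptides, the Tap1 and Tap2 transporter carries them into the endoplasmic reticulum, and tapasin (Tapbp) helps load them onto a heavy chain paired with B2m. Class II molecules present peptides from endosomes to CD4 T cells and are made mainly by dendritic cells, macrophages and B cells, and by enterocytes after induction by interferon gamma. Many of these genes lie together on mouse chromosome 17 and respond to interferons through Irf1 and related factors. Blimp1 recognises a sequence that resembles the interferon response element, and in plasma cells it silences Ciita, the class II transactivator.

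Values are normalised log2 intensities, and each difference is the labelled mutant mean (n = 10) minus the labelled control mean (n = 11) with its limma SE. P-values were adjusted by Benjamini-Hochberg across the 16641 probes tested, and the threshold for a call was 0.05. A gene was read through its brightest tested probe. Of the 32 members with a probe, 26 had a tested probe, and 6 had none. Of the 26, 3 were higher, 1 was lower and 22 did not pass the threshold. The 4 calls stand against 23.2% of 9961 genes called on the whole array, where 10.6% were higher and 12.6% lower. The median difference over the 26 members was -0.0012, beside 0.01 over all genes tested. No member separated the groups completely: labelled controls and labelled mutants overlapped for each of the 26, beside 4.40% of all genes with no overlap. In whole tissue, fewer cells of a type and less RNA per cell cannot be told apart.

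**Figure D1:**
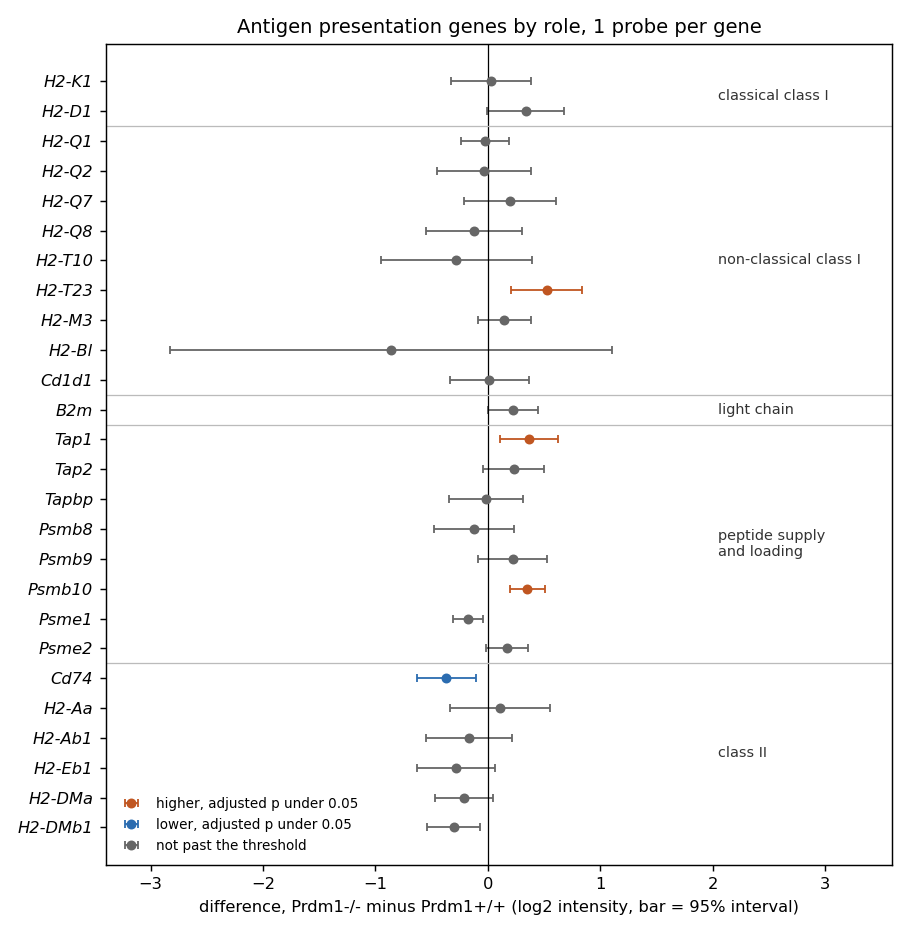
Difference in log2 intensity between labelled mutants and labelled controls for the 26 tested members, 1 probe per gene, ordered by role; points are estimates and bars are 95% intervals. H2-T23, Psmb10 and Tap1 lay above 0 and Cd74 below 0 past the threshold, and the widest interval was that of H2-Bl.

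By role, 1 of 11 tested class I heavy chains was called higher, with a median difference of 0.01. B2m was not called. Of 8 tested genes of peptide supply and loading, 2 were called higher, and the median was 0.20. Of 6 class II genes, 1 was called lower, the differences of 5 were negative, and the median was -0.25. The 3 rises were all among the 20 tested class I pathway genes and the 1 fall was among the 6 class II genes. Over the whole array 10.6% of genes were higher and 12.6% lower. Whether the roles differed from each other was not tested, and Tap1 and Cd74 were each called in 15 of 33 alternatives. At an unadjusted p under 0.05 there were 7 of 26 members, beside 3425 of 9961 genes on the whole array.

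Among the heavy chains, the call was in H2-T23, which encodes Qa-1, a non-classical heavy chain that presents leader peptides of other class I molecules to natural killer receptors. Its brightest probe read 9.37 at the lowest, 9.93 at the median and 10.39 at the highest in labelled controls. In labelled mutants the same probe read 9.89, 10.41 and 11.12. The ranges overlapped, and 5 of the 10 labelled mutants were above the highest labelled control. The difference was 0.53 ± 0.15 (1.44-fold, adjusted p = 0.0151). A neighbouring probe gave 0.54 ± 0.15 (adjusted p = 0.0113), and the dimmest gave 0.92 ± 0.18 (adjusted p = 0.000598), with ranges of 7.44 to 8.96 and 8.47 to 9.62. The 3 probes ranked the labelled mutants differently. The 2 brighter probes were highest in mutants 1 and 10, and the dimmest in mutants 5 and 2. On the dimmest probe mutants 10 and 4 were the lowest labelled mutants, at 8.47 and 8.56. The brightest probe kept a positive difference in each of the 33 alternatives, but its call was lost in 3: with median scaling (0.44, adjusted p = 0.0605) and in separate fits of the arrays with fewer (0.48, adjusted p = 0.229) and with more probes detected (0.60, adjusted p = 0.0708).

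The stretch before the start of H2-T23 is shown because, of the called genes, its window alone holds GAAANNGAA, an interferon-type motif, beside that of B2m, the partner chain of class I heavy chains. Sequences are from RefSeq, build GRCm38.p6, written 5′ to 3′ on the gene's strand, from 200 bases before the annotated start to the base before it. The windows searched were the 250 bases before a start, on both strands, and 22 members had one. Capitals mark GAAANNGAA, AANNGAAA or ATTGG on either strand. The first 2 motifs can overlap, and then 1 run of capitals covers both.
H2-T23 (chr17:36032702-36032901, minus strand): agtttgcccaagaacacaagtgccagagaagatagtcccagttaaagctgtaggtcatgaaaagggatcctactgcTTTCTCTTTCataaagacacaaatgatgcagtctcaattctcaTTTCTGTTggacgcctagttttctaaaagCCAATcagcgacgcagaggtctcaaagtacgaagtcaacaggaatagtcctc
B2m (chr2:122147487-122147686, plus strand): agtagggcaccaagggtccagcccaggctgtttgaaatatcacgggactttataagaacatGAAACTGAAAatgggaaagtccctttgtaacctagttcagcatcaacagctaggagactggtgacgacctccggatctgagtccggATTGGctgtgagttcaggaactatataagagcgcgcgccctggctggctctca
GAAANNGAA was present in the windows of H2-T23, B2m, H2-T22 and Erap1, and in 7.13% of all 32851 windows. AANNGAAA was present for 12 of the 22 members and in 21.3% of all windows. A match is a description of the letters, not a measured binding site.

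The classical heavy chains H2-K1 and H2-D1 present peptides to CD8 T cells and were not called. H2-D1 read from 8.69 to 10.45 in labelled controls, with a median of 10.12, and from 10.08 to 10.56 in labelled mutants, with a median of 10.32. The labelled mutants lay inside a narrow band, while controls 5 and 11 read 8.69 and 9.31, at least 0.57 below every other array. The difference was 0.34 ± 0.16 (adjusted p = 0.166). A second H2-D1 probe gave -0.01 ± 0.11 (adjusted p = 0.972) and put control 11 highest, and another, dimmer probe gave 0.27 ± 0.15 (adjusted p = 0.221). The H2-K1 probe of highest signal read 8.03 to 9.16 in labelled controls and from 7.88 to 9.74 in labelled mutants, with medians of 8.85 and 8.82. Its difference was 0.03 ± 0.17 (95% interval -0.33 to 0.38, adjusted p = 0.938).

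The regulatory stretches of these classical genes are nearly the same, which is why they are shown together. GGGATTCCC, the core of the kappa B site of class I promoters, stood near an interferon-type match in both. It was present in the windows of H2-K1, H2-D1 and H2-Q7 and in 0.301% of all windows. Capitals mark GGGATTCCC and AANNGAAA read on the opposite strand.
H2-K1 (chr17:34000428-34000457, minus strand): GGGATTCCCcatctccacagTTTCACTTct
H2-D1 (chr17:35262924-35262953, plus strand): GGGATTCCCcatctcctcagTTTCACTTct
The stretches were identical at 29 of 30 bases, with the single substitution A17T from H2-K1 to H2-D1, counted from 1 at the 5′ end.

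Heavy chains of the H2 family are close relatives, and a probe may read more than the gene it is named for, or miss an allele of it. Probe sequences were not used here, so each H2 value is that of a probe named for the gene. H2-K1 shows why this matters. On its second probe, control 10 read 9.63 and mutant 8 read 8.90, at least 1.21 above all other arrays, which lay between 6.09 and 7.69. On the first H2-K1 probe the same arrays, control 10 and mutant 8, were the lowest of 21, at 8.03 and 7.88. They were also the highest on the probe of H2-Q6, a related heavy chain outside the member set, at 9.32 and 9.10, where the other arrays read at most 7.91. H2-K1 probe 2 differed between the labelled groups by 0.06 ± 0.31 (adjusted p = 0.923).

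H2-Bl, a class I-like gene first named from blastocysts, had the widest spread of any member. Its within-group SD ranked 15 of the 16641 probes tested. In labelled controls it read 6.46 at the lowest, 11.07 at the median and 11.91 at the highest. In labelled mutants it read 6.91, 7.71 and 12.64. The arrays fell on either side of a gap of 2.44. Below the gap were 9 arrays, controls 1, 2 and 10 and mutants 2, 5, 6, 7, 8 and 9, at 6.46 to 8.45. Above it were 12 arrays at 10.89 to 12.64, with members of both groups. The gap was 0.395 of the whole range, just under the 0.4 required here for calling 2 levels, and no member met that rule. The difference between the labelled groups was -0.86 ± 0.95 (95% interval -2.82 to 1.11, adjusted p = 0.603), so a group mean describes few of the arrays.

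The same arrays were low on probes of some other class I genes and high on others. The H2-T10 probe of highest signal had exactly those 9 arrays as its 9 lowest, at 4.54 to 5.23, and the other 12 read 5.84 to 6.75. H2-Q7 and H2-Q8 had 8 of the 9 among their 9 lowest. In the other direction, H2-M3 and the dimmest H2-T23 probe had 7 of the 9 among their 9 highest. So did H2-Q5 and H2-Q6, which are outside the member set. H2-Q7 read 7.39 to 8.33 in labelled controls and from 7.36 to 9.21 in labelled mutants, with a difference of 0.20 ± 0.20 (adjusted p = 0.554). It passed the threshold with H2-Bl intensity as a further term in the fit, at 0.35 (adjusted p = 0.0314), a term added after the data were seen. H2-Q8 differed by -0.12 ± 0.21 (adjusted p = 0.752) and H2-T10 by -0.28 ± 0.32 (adjusted p = 0.624). A second H2-T10 probe had the opposite sign, 0.19 ± 0.16 (adjusted p = 0.475). H2-T23, the called heavy chain, is next to H2-Bl in gene order. On its brightest probe the labelled mutants above the gap (1, 3, 4 and 10) read 10.52 to 11.12, and the others at most 10.49. On its dimmest probe those above the gap read 8.47 to 9.06, and the others at least 9.12. Labelled controls from either side of the gap overlapped on both probes.

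**Figure D2:**
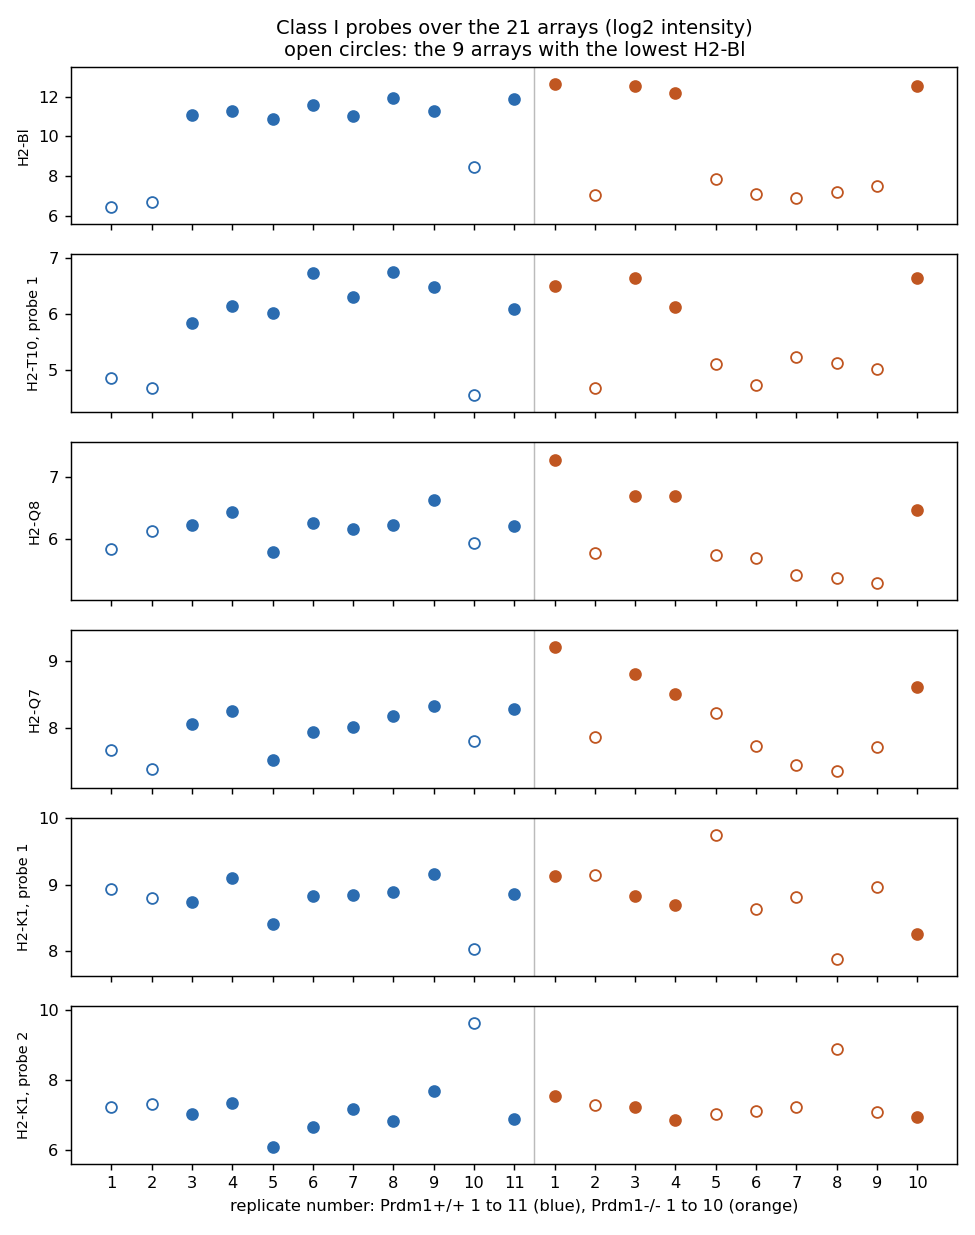
Log2 intensity on each of the 21 arrays for 6 class I probes, labelled controls in blue and labelled mutants in orange; open circles are the 9 arrays lowest in H2-Bl. The open circles are the 9 lowest in H2-T10 and mostly low in H2-Q8 and H2-Q7. Control 10 and mutant 8 stand apart above the other arrays on H2-K1 probe 2. On H2-K1 probe 1 they are the lowest, by a smaller gap of 0.22.

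The order of arrays in H2-Bl was shared by probes on several chromosomes, and more often by those near it. Of 16640 other tested probes, 27 had at least 8 of the 9 arrays among their 9 lowest or 9 highest, and 24 of these had a gene with a chromosome. Of those 24, 11 (45.8%) were on chromosome 17, beside 4.98% of all other probes with a chromosome. Besides H2-T10, H2-Q7 and H2-Q8 they were Fgd2, Zfp101, Vars2, Ddr1, Rpp21, Ppp1r11, Ubd and Adgrf5. Of the probes within 20 tested genes of H2-Bl on either side, 7 of 54 shared the order, against 3 of 665 farther along the chromosome. H2-Q8 is in neither count, because the gene table does not place it beside the other H2-Q genes. These counts are descriptions of the same 21 arrays, and no groups were formed from them. Strain was mixed by the labels. Whether haplotype accounts for the levels was not tested.

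**Figure D3:**
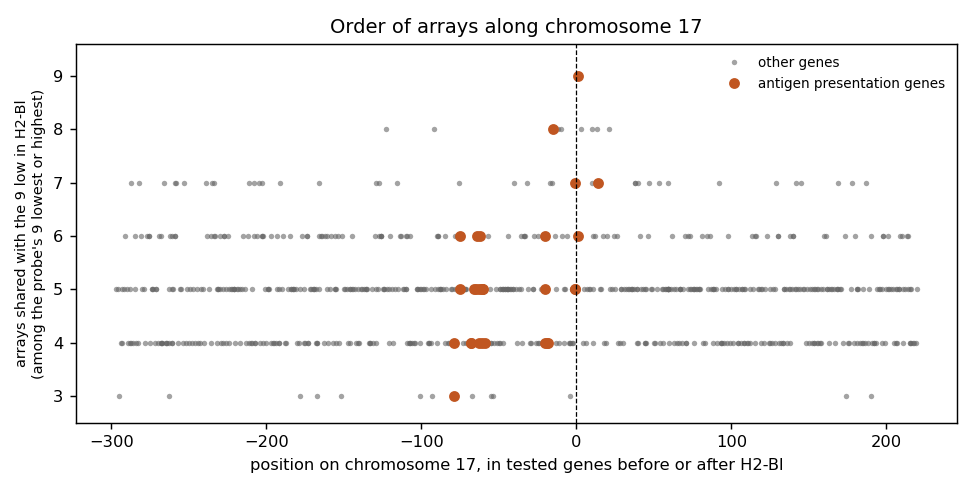
Tested probes of chromosome 17 by gene position relative to H2-Bl (x axis, in tested genes) and the number of the 9 arrays low in H2-Bl that are among each probe's 9 lowest or 9 highest (y axis, of 9). H2-T10 shared all 9, and probes sharing at least 8 were 7 of 54 within 20 genes and 3 of 665 beyond.

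The remaining class I-like members gave no call. H2-M3, which presents formylated peptides, read 4.74 to 5.74 in labelled controls and from 5.11 to 5.69 in labelled mutants, with a difference of 0.15 ± 0.11 (adjusted p = 0.424). Cd1d1, which presents lipids to natural killer T cells, differed by 0.01 ± 0.17 (95% interval -0.34 to 0.37, adjusted p = 0.97). H2-Q1 differed by -0.03 ± 0.10 (adjusted p = 0.895) and H2-Q2 by -0.04 ± 0.20 (adjusted p = 0.935). The signs of Cd1d1, H2-Q1 and H2-Q2 turned in some alternatives. H2-Q10, H2-T3, H2-T22 and H2-T24 were not detected on any array, so their probes give no level. The same held for Nlrc5, the class I transactivator, and for all 3 probes of Erap1, the peptidase that trims peptides before loading.

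B2m, the chain that all these heavy chains share, read 12.60 at the lowest, 13.10 at the median and 13.57 at the highest in labelled controls, and 13.02, 13.34 and 13.55 in labelled mutants. The labelled mutants lay within the range of the labelled controls, whose lowest arrays were controls 5 and 6. The difference was 0.22 ± 0.11 (adjusted p = 0.151), and a second probe gave 0.22 ± 0.10 (adjusted p = 0.146).

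Among genes of peptide supply, Psmb10, a catalytic subunit of the immunoproteasome, was called on both of its probes. The brighter read 10.74, 10.93 and 11.36 at the lowest, median and highest labelled control, and 11.11, 11.25 and 11.74 in labelled mutants. Only control 10 exceeded 11.11 among labelled controls. The difference was 0.35 ± 0.08 (1.28-fold, adjusted p = 0.00147), and the other probe gave 0.36 ± 0.08 (adjusted p = 0.00112). The other inducible catalytic subunits were not called: Psmb8 differed by -0.12 ± 0.17 (adjusted p = 0.694) and Psmb9 by 0.22 ± 0.15 (adjusted p = 0.347). Psmb8 and Psmb9 lie beside Tap1 and Tap2 in the class II region of chromosome 17, while Psmb10 lies on chromosome 8.

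Tap1, which forms the peptide transporter with Tap2, read 5.01, 5.41 and 6.02 in labelled controls and 5.36, 5.82 and 6.15 in labelled mutants, again lowest, median and highest. The probe was dim, detected on 8 of 11 control and 10 of 10 mutant arrays. The difference was 0.37 ± 0.12 (1.29-fold, adjusted p = 0.039). This call was near the threshold: it was kept in 9 of 21 fits that each left out 1 library, with adjusted p from 0.00951 to 0.0721. It ended without control 1, 2, 5, 6, 7, 9 or 11, or without mutant 5, 6, 8, 9 or 10, and without the 6 labelled mutants with Car1 it was 0.31 (adjusted p = 0.292). Tap2 differed by 0.23 ± 0.13 (adjusted p = 0.252), with ranges of 6.38 to 7.74 and 6.96 to 7.87.

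Tapbp differed by -0.02 ± 0.16 (adjusted p = 0.962). Psme1 and Psme2 form the PA28 cap that opens the proteasome, and their estimates had opposite signs. Psme1 read 12.14 to 12.61 in labelled controls and from 11.97 to 12.40 in labelled mutants, with a difference of -0.17 ± 0.06 (adjusted p = 0.0608). Psme2 differed by 0.17 ± 0.09 (adjusted p = 0.214). Whether Psme1 and Psme2 differed from each other was not tested.

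**Figure D4:**
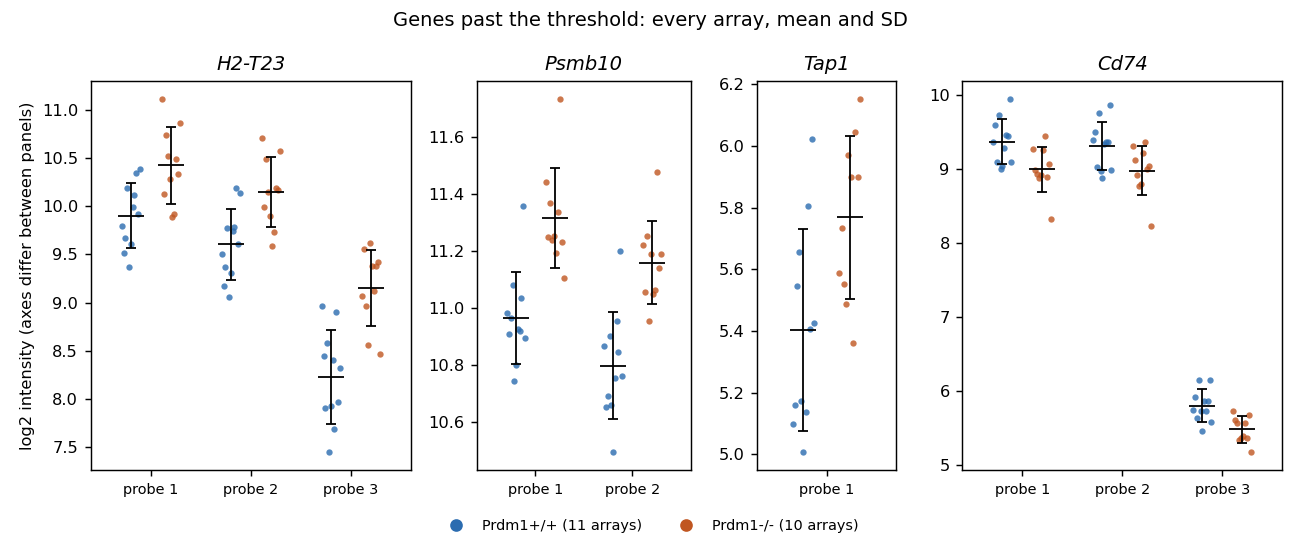
Log2 intensity on each array for every tested probe of the 4 genes past the threshold, labelled controls in blue and labelled mutants in orange, with mean and SD; panels have their own axes. Both groups overlap on each probe, and all 3 probes of H2-T23 and of Cd74 keep 1 direction.

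The stretches before the called loading genes are shown because both genes passed the threshold. Psmb9 and Tap1 are transcribed away from each other from a shared stretch, printed from the base after the start of Psmb9 to the base before that of Tap1, on the strand of Tap1. Capitals mark ATTGG on either strand.
Psmb9 to Tap1 (chr17:34187331-34187555, plus strand): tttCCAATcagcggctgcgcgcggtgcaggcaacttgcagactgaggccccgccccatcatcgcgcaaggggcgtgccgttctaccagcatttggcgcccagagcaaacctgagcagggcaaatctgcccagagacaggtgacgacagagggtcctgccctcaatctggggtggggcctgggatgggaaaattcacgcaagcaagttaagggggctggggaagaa
Psmb10 (chr8:105938393-105938592, minus strand): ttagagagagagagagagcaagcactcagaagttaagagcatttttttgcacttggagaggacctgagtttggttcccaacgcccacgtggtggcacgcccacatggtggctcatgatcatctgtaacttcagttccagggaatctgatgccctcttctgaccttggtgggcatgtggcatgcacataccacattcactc
Neither stretch holds GAAANNGAA or AANNGAAA, which says only that these letters are not in these windows.

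Class II genes gave the only fall among the members. Cd74, the invariant chain that guides class II molecules to endosomes, read 9.00, 9.36 and 9.95 at the lowest, median and highest labelled control, and 8.33, 8.96 and 9.45 in labelled mutants. Mutant 10 was 0.56 below every other array, and controls 10 and 4 were the highest. The difference was -0.37 ± 0.13 (1.29-fold lower, adjusted p = 0.0407). Its other probes gave -0.34 ± 0.14 (adjusted p = 0.083) and -0.32 ± 0.09 (adjusted p = 0.00952). The call on the brightest probe was kept in 8 of 21 fits that each left out 1 library, with adjusted p from 0.0203 to 0.0732. It ended without control 1, 2, 4, 8, 9 or 10, or without mutant 2, 3, 4, 5, 8, 9 or 10, and without the 6 labelled mutants with Car1 it was -0.34 (adjusted p = 0.191).

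The class II chains themselves were not called. H2-Eb1, a beta chain, read 7.44 to 8.83 in labelled controls and from 6.84 to 8.41 in labelled mutants, with a difference of -0.28 ± 0.17 (adjusted p = 0.266). H2-Ab1, the beta chain of the other mouse class II molecule, differed by -0.17 ± 0.18 (adjusted p = 0.597), and its partner H2-Aa by 0.11 ± 0.21 (adjusted p = 0.792). H2-DMa and H2-DMb1, which exchange peptides on class II molecules, differed by -0.21 ± 0.13 (adjusted p = 0.265) and -0.31 ± 0.11 (adjusted p = 0.0628). The negative sign of Cd74, H2-Ab1, H2-Eb1, H2-DMa and H2-DMb1 held in each of the 33 alternatives. The positive sign of H2-Aa turned in 1.

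Single arrays were low across the class II genes. Mutant 10 was the lowest labelled mutant on the brightest probes of Cd74, H2-Aa, H2-Eb1, H2-DMa and H2-DMb1, and control 11 was the lowest labelled control for H2-Aa, H2-Ab1 and H2-Eb1. In H2-Eb1, mutant 10 read 6.84, and the next mutant read 7.87. Control 10 was the highest of 21 arrays in Cd74, H2-Eb1 and H2-DMb1.

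**Figure D5:**
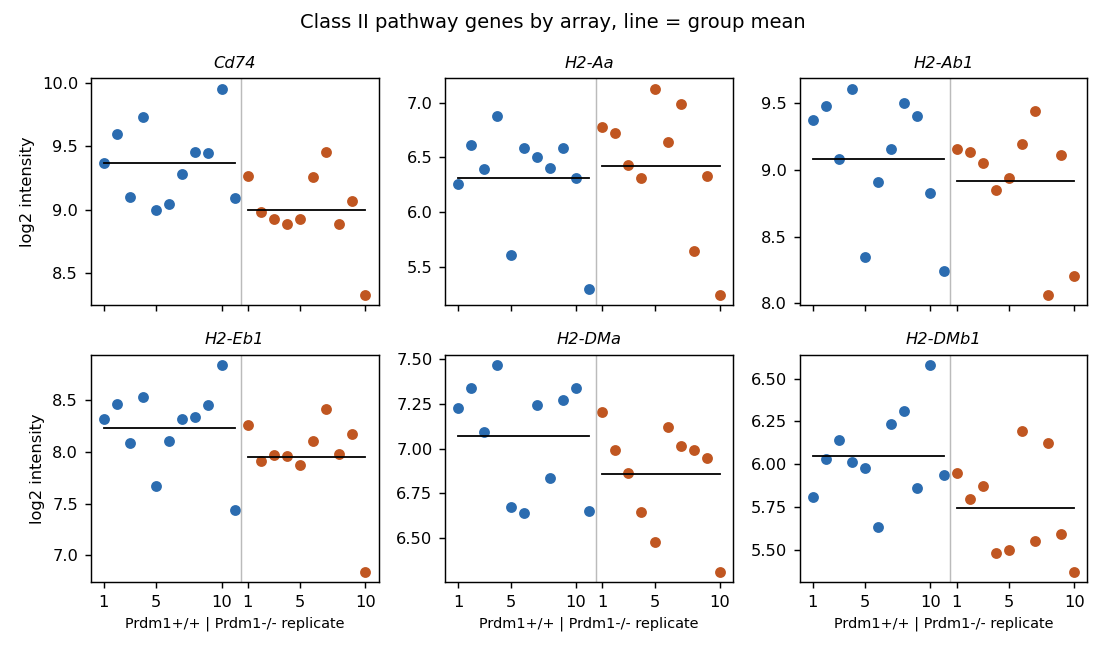
Log2 intensity of the 6 class II genes on each array, labelled controls in blue and labelled mutants in orange, with a line at each group mean. Mutant 10 is the lowest of the mutants in 5 of the 6 genes, and the groups overlap in all 6.

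The stretches before H2-Eb1 and H2-Aa are shown because class II promoters share a conserved block that ends in the Y box, read as ATTGG. Capitals mark ATTGG on either strand, which was present for 15 of the 22 members with a window and in 33.8% of all windows.
H2-Eb1 (chr17:34305747-34305866, plus strand): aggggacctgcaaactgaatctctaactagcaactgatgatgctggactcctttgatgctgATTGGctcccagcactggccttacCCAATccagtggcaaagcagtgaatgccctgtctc
H2-Aa (chr17:34287824-34287943, minus strand): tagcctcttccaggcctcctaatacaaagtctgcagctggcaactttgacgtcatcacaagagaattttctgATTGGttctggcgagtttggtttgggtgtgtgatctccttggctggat

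Other genes of the pathway were counted as lists, to be read beside 10.6% of all genes tested called higher and 12.6% called lower. Of 13 tested constitutive proteasome subunits and loading chaperones, 0 were higher and 1 was lower, Pdia3, a thiol oxidoreductase of the loading complex, at -0.27 ± 0.08 (adjusted p = 0.0155), and the list's median was -0.07. Of 10 tested class II regulators and endosomal processing genes, 0 were higher and 4 were lower, with a median of -0.22. These were Lgmn, an asparaginyl endopeptidase, at -1.96 ± 0.14 (adjusted p = 2.92e-10), Ctsl at -1.10 ± 0.39 (adjusted p = 0.0468), Ctsb at -0.45 ± 0.07 (adjusted p = 1.74e-05) and H2-DMb2 at -0.32 ± 0.11 (adjusted p = 0.0485). Ciita and Rfx5, which drive class II transcription, were not among the genes tested. The tested regulators Rfxap, Nfyb and Nfyc were not called, with differences of 0.06, 0.12 and 0.07. Of 8 other class I-like genes tested, 1 was higher and 2 were lower. H2-Q5 was higher by 0.79 ± 0.17 (adjusted p = 0.00149). Fcgrt, the neonatal Fc receptor, which pairs with B2m, was lower, at -0.87 ± 0.12 (adjusted p = 1.3e-05). H2-M2 was lower, detected on 5 of 11 control and 0 of 10 mutant arrays, which gives labelled controls at least 1.13-fold above labelled mutants (means 5.30 and 4.48, adjusted p = 0.000505).

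Of 15 tested interferon signalling genes, 1 was higher and 2 were lower, with a median of 0.06. Irf7, which amplifies type I interferon responses, was higher by 0.73 ± 0.20 (adjusted p = 0.00842). Irf1, an activator of class I genes, fell by 0.45 (SE 0.09, adjusted p = 0.000509), with labelled controls at 11.22 to 11.83 and labelled mutants at 10.65 to 11.34. Tyk2, a kinase of the type I interferon receptor, was lower, at -0.19 ± 0.05 (adjusted p = 0.0081). Of 20 tested interferon-stimulated genes, 10 were higher, again with Irf7 among them, and 0 were lower, with a median of 0.62. Their summed linear intensity ranged from 3517 to 8951 in labelled controls and from 5922 to 12642 in labelled mutants. The part of interferon-stimulated genes in the class I values was not tested.

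Markers of cells that express class II genes were read beside Cd74. Of 11 tested macrophage markers, 2 were higher, 4 were lower and 5 were not called, beside 10.6% of all genes higher and 12.6% lower. Their summed intensity ranged from 2379 to 3083 in labelled controls and from 1610 to 2409 in labelled mutants. Such a sum weighs bright genes most. Csf1r had the highest labelled control mean of these markers, 9.44, and a labelled mutant mean of 7.96. Of the called markers, the 4 with the largest differences went both ways. The remaining called markers, Aif1 (-0.27) and C1qc (-0.22), were lower. Fcer1g, at -1.15 ± 0.78 (adjusted p = 0.344), was not called. Csf1r, the macrophage growth factor receptor, was lower, at -1.48 ± 0.10 (adjusted p = 2.37e-10), as was Lyz2, a lysozyme, at -0.59 ± 0.18 (adjusted p = 0.0194). Cd163, a scavenger receptor detected on 1 of 11 control and 5 of 10 mutant arrays, was higher by 0.42 ± 0.12 (adjusted p = 0.0118) and Mrc1, the mannose receptor, by 0.30 ± 0.10 (adjusted p = 0.04). Leukocyte markers were lower in 2 of 4 tested, with sums of 1714 to 2486 and 1709 to 2388. Of 3 tested B cell markers 1 was lower, and 0 of 2 dendritic cell markers and 0 of 1 T cell and innate lymphoid cell marker were called. Ptprc, Itgax, Flt3 and Cd3e had no tested probe. Epithelial markers were higher in 4 and lower in 1 of 10 tested. The part of these cell types in the class II values was not tested.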

How the data were processed

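Per the labels' protocols, column-purified total RNA was made into biotinylated cRNA. The authors deposited raw linear intensity values without background subtraction, and for each value a detection p-value (GenomeStudio 2009.2, per the submitters' processing notes). A second deposited table of processed intensity values was linear in the raw values on each array and served as an alternative. The raw table was normalised here with neqc of limma 3.58.1 (R 4.3.3): normexp background from detection p-values, offset 16, quantiles, log2. With this offset, fold changes of dim probes are understated. Probes with a detection p under 0.01 on at least 5 of 21 arrays were tested (16641 of 45281), with lmFit and eBayes and genotype as the only term. Platform symbols were updated through RefSeq of GRCm38.p6, and symbols can be old. The fit was tested on simulated data. Where a probe was undetected in a whole group, the fold is a lower bound: the other group's mean against that group's mean after raising each array to its lowest detected signal. The sums of linear intensities over a list are from the normalised values.

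All members were named, and from each other pathway list, and the macrophage markers, up to 4 called genes with the largest difference. Further genes of the macrophage and class II regulator lists were named after the data were seen. Members and lists were chosen with earlier results of these data known. Nothing in the labels says that equal replicate numbers mark a shared litter, and the deviations of same-numbered arrays correlated between -0.25 and 0.30, so numbers were not used to pair them. Embryos are separate replicates by their labels alone.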

Additional observations from a re-analysis of the deposited data

Results flagged for a closer look

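In 6 cases 1 labelled mutant lay far from the other 9. Its gap to the nearest array, divided by the range of the group, passed Dixon's 95% critical value for 10 arrays. Chance flags about 1 in 20 groups, and 42 member probes were examined in the labelled mutants. Mutant 8 was high on H2-K1 probe ILMN_2795520 (0.66 of the range, 8.90 against 7.55) and on Psme1 probe ILMN_2671204 (0.516, 10.99 against 10.77). Mutant 10 was low on Cd74 probes ILMN_1221817 (0.493, 8.33 against 8.88) and ILMN_3089584 (0.478, 8.23 against 8.77). It was also low on H2-Ab1 probe ILMN_2631423 (0.492, 6.46 against 7.40) and on H2-Eb1 probe ILMN_1239102 (0.657, 6.84 against 7.87).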

How the results depend on the processing

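Across 33 alternatives, 857 member differences were recomputed, of which 52 changed sides of the threshold, and 18 of the 26 genes were not called in any fit. Median scaling moved the median of all probes from 0.01 to -0.04 and left 1 member higher and 2 lower. Without background correction 2 were lower, and without the filter on dim probes 0 were lower. Numbers did not pair the samples; with the replicate number as a block over 10 pairs 0 members were lower, Cd74 was -0.40 (adjusted p = 0.0959), and 3080 probes were called in place of 3485. Leaving out 1 library at a time gave 2 to 3 members higher and 0 to 2 lower. H2-T23 was called in 30 and Psmb10 in 32 of the 33 alternatives, Tap1 and Cd74 in 15 each. Chosen after seeing the data, the number of probes detected as a term gave 4 lower. Fits within the 11 arrays with at most 15021 probes detected gave 1 higher and 0 lower, and within the other 10 arrays 0 were higher. Without the 6 libraries with Car1, 0 were lower. The cause of these changes was not tested. A fit with the beadchip as a block was not run, because the headers name no beadchip. Signal over background limited Tap1, H2-T10, H2-M3, H2-Q1 and Tapbp, which were not detected on every array.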
